A study of Mus musculus with 24 samples.

Results

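The data concerned 10 genes of the BCL2 family and the p53 axis, chosen by name as the rows of the count table whose Ensembl IDs map to the symbols Bcl2, Bcl2l1, Mcl1, Bax, Bak1, Bcl2l11, Bbc3, Pmaip1, Trp53 and Mdm2. These are 10 of the 37991 genes in the table, and each symbol matched 1 row. RNA was sequenced from mammary tissue of 24 female mice aged 6, 8, 10 or 12 weeks, and each age had 3 mice with the PyMT transgene and 3 without it. The PyMT mice were heterozygous F1 daughters of transgenic males and FVB females, in which the mouse mammary tumor virus (MMTV) promoter drives the polyoma middle T antigen mainly in mammary epithelium. Their tissue was hyperplastic gland at 6 weeks, adenoma or mammary intraepithelial neoplasia (MIN) at 8, early carcinoma at 10 and late carcinoma at 12. The controls were homozygous FVB females of the same ages without the transgene, from which normal mammary glands were taken. No treatment is described for either group, and both had the FVB background.

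The BCL2 family sets whether a cell commits to mitochondrial apoptosis. Anti-apoptotic members (Bcl2, Bcl2l1 encoding BCL-XL, Mcl1) hold back the effectors Bax and Bak1, which permeabilize the outer mitochondrial membrane, and BH3-only proteins (Bcl2l11 encoding BIM, Bbc3 encoding PUMA, Pmaip1 encoding NOXA) neutralize the anti-apoptotic members or activate the effectors. The p53 protein, encoded by Trp53, induces Bbc3, Pmaip1, Bax and Mdm2, and Mdm2 in turn marks p53 for degradation. In the mammary gland this pathway takes part in clearing the epithelium after weaning. Much of its control lies in protein stability and location, which RNA does not show.

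Over all weeks, 3 of the 10 genes rose in PyMT samples: the BH3-only gene Bcl2l11, the effector Bak1 and the anti-apoptotic gene Mcl1. The other 7, among them Trp53, Mdm2, Bax and Bcl2, did not pass the test, and no member fell. Changes were small: 1.46-fold for Bcl2l11 (95% interval 1.11 to 1.93), 1.33-fold for Bak1 (1.08 to 1.64) and 1.19-fold for Mcl1 (1.06 to 1.33). The comparison set 12 PyMT against 12 FVB samples with week as a term, in the quasi-likelihood test of edgeR, and a call is a Benjamini-Hochberg adjusted p under 0.05 over 14918 genes. In the same test 51.1% of all tested genes were called, of which 23.6% rose and 27.5% fell (shares of all tested genes), so a share of 3 in 10 rising was near the background.

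The sequences upstream of the 3 genes that rose are shown because these genes moved in the same direction. They are the 250 bases before the RefSeq start on GRCm38.p6, and capitals mark matches to the motifs searched. Bak1 (minus strand, chr17:27028628-27028877) held no match, Bcl2l11 (plus strand, chr2:128125788-128126037) held 3 GC boxes and 1 inverted CCAAT box, and Mcl1 (plus strand, chr3:95658471-95658720) held 1 GC box.
Bak1: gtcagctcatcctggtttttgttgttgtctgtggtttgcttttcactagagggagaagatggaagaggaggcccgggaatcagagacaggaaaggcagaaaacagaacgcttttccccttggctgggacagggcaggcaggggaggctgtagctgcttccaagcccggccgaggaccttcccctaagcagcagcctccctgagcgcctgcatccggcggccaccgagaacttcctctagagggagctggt
Bcl2l11: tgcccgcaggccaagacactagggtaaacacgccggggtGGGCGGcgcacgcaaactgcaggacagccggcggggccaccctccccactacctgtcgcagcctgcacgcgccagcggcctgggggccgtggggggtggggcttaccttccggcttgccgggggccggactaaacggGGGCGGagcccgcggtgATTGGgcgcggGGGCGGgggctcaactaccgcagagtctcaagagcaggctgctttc
Mcl1: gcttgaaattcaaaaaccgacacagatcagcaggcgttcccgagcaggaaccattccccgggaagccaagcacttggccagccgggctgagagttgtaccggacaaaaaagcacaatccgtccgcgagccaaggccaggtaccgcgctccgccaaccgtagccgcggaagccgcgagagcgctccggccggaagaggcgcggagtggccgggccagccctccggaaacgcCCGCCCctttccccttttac
The motifs, searched on both strands, were the GC box (GGGCGG), the CCAAT box (CCAAT), the TATA box (TATAAA), the cAMP response element (TGACGTCA), a STAT site (TTCNNNGAA), the E2F site (TTTCCCGC, TTTCGCGC, TTTGCCGC or TTTGGCGC) and the p53 half-site, and none of the matches shown overlapped another motif. RefSeq gave a window for 9 of the 10 genes, and where it gave several starts the first listed was used. A GC box stood in 6 of these 9 windows and in 32.9% of all 27025 windows. A CCAAT box stood in 3 of 9 (Bcl2l11, Trp53, Mdm2) and 34.5% of all, and a TATA box in 1 of 9 (Trp53) and 13.0% of all. A p53 half-site stood in 3 of 9 (Bax, Trp53, Mdm2) and in 7.18% of all windows. No member window held the E2F site, the cAMP response element or the STAT site, which stood in 1.91%, 1.62% and 7.18% of all windows. These matches describe letters in a window and are not evidence of binding.

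The libraries held 6969375 to 13516601 counts, of which the 10 genes took 0.0335% to 0.0762%. In 13 libraries (6 PyMT, 7 FVB) low counts piled up around a value between 8 and 25, and in the other 11 they did not. These 11 included no PyMT library of week 6 and no FVB library of week 10. With week as a term, fits of the 11 therefore compared the genotypes within weeks 8 and 12 only. PCR reads without molecular identifiers are not independent molecules, and the cause of the piled-up counts was not tested. The tissue differed between the groups in its markers. Adipocyte markers fell in PyMT samples for 6 of 6 genes, with a summed level of 832 to 13630.4 normalized counts in PyMT against 41296 to 115018 in FVB samples. Endothelial markers fell for 4 of 4 (557 to 1575 against 3430.0 to 6617) and fibroblast markers for 4 of 4 (5689 to 13933 against 17942 to 58668). Basal epithelial markers fell for 3 of 5, Acta2, Myh11 and Oxtr (sum of all 5, 919 to 5248 against 4205 to 13632). The basal keratins did not pass, with log2 differences of -5.7e-05 for Krt5 and 0.22 for Krt14. Macrophage markers fell for 2 of 4 (1467.5 to 2908 against 1711 to 4159). Luminal epithelial markers rose for 5 of 6, with Krt19 lower (19707 to 37268 against 4174 to 18300.1), and proliferation markers rose for 4 of 4 (5594 to 10511 against 275 to 5987). Skeletal muscle markers fell for 5 of 5, from 0 to 26999 in PyMT and 75.8 to 479533 in FVB samples, and 4 FVB libraries (week 6 replicates 1 and 2, week 10 replicate 3, week 12 replicate 1) held 107516 or more. Without these 4, with voom and in the 11 libraries without piled-up low counts no muscle marker passed, and leaving out the 2 libraries with the most genes at 0 left 1. Genes at 0 were counted only among 3799 genes of medium level. The sign of Myh4 changed without the 4, and those of Ckm, Tnnt3 and Myh4 with voom. With scaling by library size alone Krt19 and Csf1r, a macrophage marker, no longer passed. Of 5 T cell and 5 B cell markers, 1 and 0 passed the filter on low counts, and their sums stayed at or below 100.2 and 35.2 in every library. No marker of these lists was at 0 in all libraries. In bulk tissue, fewer cells of a type and less RNA per cell cannot be told apart, and the part these differences play in the results was not tested.

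Per kb of exon, which allows levels to be compared between genes, Mcl1 had the highest level of the 10, with a mean of 487 normalized counts per kb over the 24 samples, and it lay above Bax in 24 of 24 libraries. Bax (156 per kb), Bcl2l1 (146) and Bak1 (136) followed, then Mdm2 (117) and Trp53 (98.6). Neighbours in this stretch changed places often: Bax lay above Bcl2l1 in 14 of 24 libraries, Bcl2l1 above Bak1 in 14, Bak1 above Mdm2 in 16 and Mdm2 above Trp53 in 15. Bcl2l11 (65.6) and Bcl2 (65.4) did not separate, since Bcl2l11 was higher in 13 of 24. Bbc3 (35.9) was below Bcl2 in 22 of 24, and Pmaip1 (6.32) was below Bbc3 in all 24. All 10 genes passed the filter on low counts. Pmaip1 did so with raw counts of 0 to 41, and was at 0 in 4 libraries.

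**Figure D1:**
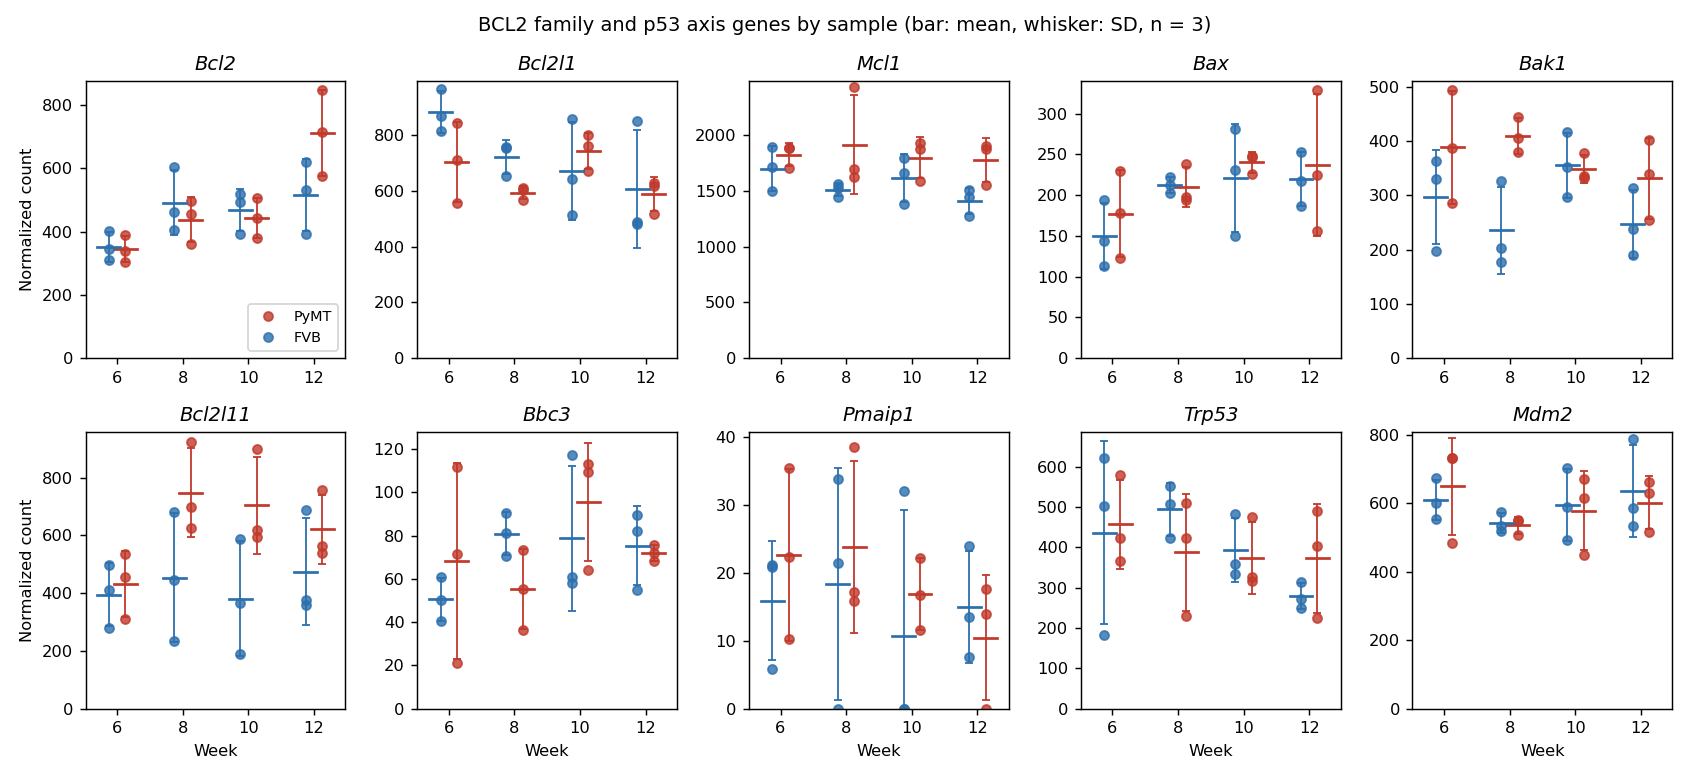
Normalized count of each of the 10 genes (vertical axes, starting at 0) by week (horizontal axes) in every PyMT (red) and FVB (blue) sample, where bars are means and whiskers SDs of 3 samples. Bcl2 in PyMT samples at week 12 (576 to 847) lay above its PyMT values at week 6 (305 to 388), and all 12 PyMT values of Mcl1 lay above the FVB median of 1518.

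Among the anti-apoptotic genes, Mcl1 (ENSMUSG00000038612, mm9 chr3:95462643-95467099), whose short-lived protein sequesters BIM and BAK, rose by 0.25 on the log2 scale over all weeks (SE 0.08, adjusted p = 0.0108, edgeR). PyMT samples ran from 1553 to 2429 with a median of 1877 normalized counts, and FVB samples from 1277 to 1896 with a median of 1518. The ranges overlapped, but 12 of 12 PyMT samples lay above the FVB median. At week 8 the PyMT samples held 1696, 2429 and 1626 and the FVB samples 1449.5, 1526 and 1564, with no overlap. At week 12 they held 1878, 1908 and 1553 against 1277, 1446 and 1510.1, again with no overlap. At weeks 6 and 10 the groups overlapped. In the 11 libraries without piled-up low counts (6 PyMT, 5 FVB) the genotypes were compared within weeks 8 and 12 only. The Mcl1 difference there was 0.26 with an adjusted p of 0.224 in edgeR, so that call was lost, where 16.4% of all genes rose.

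Bcl2l1 (ENSMUSG00000007659, mm9 chr2:152593052-152657464), the gene for BCL-XL, did not pass over all weeks, with a log2 difference of -0.11 (95% interval -0.34 to 0.11). PyMT samples ran from 517 to 845 (median 622) and FVB samples from 481 to 966 (median 756). At week 8 the PyMT samples (604, 567 and 610 normalized counts) lay below the FVB samples (753, 758 and 652), yet the edgeR adjusted p was 0.382. Its group means ran from 587 in PyMT at week 12 to 883 in FVB at week 6. With scaling by library size alone the difference over all weeks changed sign, to 0.17.

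Bcl2 (ENSMUSG00000057329, mm9 chr1:108434755-108610851), the founding member of the family, did not differ beyond the spread over all weeks, at 0.06 (95% interval -0.17 to 0.29). At week 12 the PyMT samples held 847, 716 and 576 normalized counts against 393, 532 and 619 in FVB samples. The groups overlapped by 1 PyMT sample, and the log2 difference of 0.51 (SE 0.22) had an unadjusted p of 0.0451 and an adjusted p of 0.117 in edgeR. At weeks 6, 8 and 10 the difference lay between -0.16 and -0.03. The exons of Bcl2 overlap those of D630008O14Rik on the opposite strand over 558 bp, and that gene had counts in 1 of 24 libraries, 23 being at 0.

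Of the effectors, Bak1 (ENSMUSG00000057789, mm9 chr17:27156755-27165954) rose by 0.42 over all weeks (SE 0.15, adjusted p = 0.0198, edgeR). PyMT samples ran from 254 to 494 with a median of 379 normalized counts, and FVB samples from 178 to 418 with a median of 305. The ranges overlapped, with 10 of 12 PyMT samples above the FVB median and 1 of 12 FVB samples above the PyMT median. At week 8 the groups did not overlap, with 406, 379.7 and 444 in PyMT against 178, 202 and 327 in FVB samples. The log2 difference there was 0.81 (SE 0.29), with an unadjusted p of 0.0239 and an adjusted p of 0.114. At week 10 the fitted difference was 0.03 (adjusted p = 0.955, edgeR). The means of normalized counts lay the other way, at 349 ± 25.5 (SD, n = 3) in PyMT and 355 ± 60.6 in FVB samples. The cause of this difference in sign was not tested. In the 11 libraries without piled-up low counts, which compared the genotypes within weeks 8 and 12 only, Bak1 was called at 0.67 (adjusted p = 0.0280, edgeR). Week 10, with its difference of 0.03, did not enter that value. Its exons overlap Ggnbp1 on the opposite strand over 357 bp. The normalized count of Ggnbp1 averaged 37.0 ± 19.4 in PyMT against 53.3 ± 27.0 in FVB samples (SD, n = 12), with a log2 difference of -0.48 that did not pass.

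Bax (ENSMUSG00000003873, mm9 chr7:52717065-52722268), the cytosolic effector and a p53 target, did not pass, at 0.13 over all weeks (95% interval -0.17 to 0.43). It ran from 123 to 329 normalized counts in PyMT and from 113 to 282 in FVB samples. The groups overlapped at every week.

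The BH3-only gene Bcl2l11 (ENSMUSG00000027381, mm9 chr2:127951774-127988283), whose product BIM binds all anti-apoptotic members, had a log2 difference of 0.55 over all weeks (SE 0.19, adjusted p = 0.0199, edgeR). PyMT samples ran from 309.7 to 922 with a median of 608 normalized counts, and FVB samples from 189 to 688 with a median of 395. In PyMT samples, 11 of 12 lay above the FVB median. At week 6 the values were 534, 309.7 and 456 in PyMT against 278, 413 and 496 in FVB samples, and the groups overlapped. At week 8 they were 697, 626 and 922 against 235, 445 and 683, where 1 FVB sample reached into the PyMT range. At week 10 they were 898, 595 and 620.1 against 367, 586 and 189, with no overlap, a log2 difference of 0.94 (SE 0.40), an unadjusted p of 0.0486 and an adjusted p of 0.161. At week 12 they were 539.7, 759 and 565 against 358, 688 and 377. The call over all weeks was lost without the 4 muscle-rich FVB libraries, at 0.44 with an adjusted p of 0.0686, where 23.1% of all genes rose, and in the 11 libraries without piled-up low counts, at 0.64 with an adjusted p of 0.0670.

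The p53-induced BH3-only genes Bbc3 and Pmaip1 had the lowest levels of the 10. Bbc3 (ENSMUSG00000002083, mm9 chr7:16894965-16903554), the gene for PUMA, ran from 21.4 to 113 normalized counts in PyMT and 40.6 to 117 in FVB samples. The groups overlapped in range, and the log2 difference of 0.04 had a 95% interval of -0.49 to 0.57. Pmaip1 (ENSMUSG00000024521, mm9 chr18:66618258-66625204), the gene for NOXA, ran from 0 to 38.4 in PyMT and 0 to 33.7 in FVB samples. Its interval of -1.21 to 1.74 on the log2 scale is that of a fold between 0.432 and 3.34.

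Trp53 (ENSMUSG00000059552, mm9 chr11:69393861-69405375) ran from 225 to 579.8 normalized counts in PyMT (median 413) and from 183 to 622 in FVB samples (median 391). Its log2 difference over all weeks was 0.04, with a 95% interval of -0.34 to 0.41. At week 12 it was 0.47 (SE 0.30, adjusted p = 0.283), with 225, 404 and 489.8 in PyMT against 250.2, 314 and 271 in FVB samples, and the groups overlapped. Mdm2 (ENSMUSG00000020184, mm9 chr10:117125944-117147814) had the narrowest span of group means among the 10, 1.21-fold over the 8 groups. Its values ran from 449 to 731 in PyMT and 492 to 788 in FVB samples. Its log2 difference of 0.0043 had a 95% interval of -0.19 to 0.20, which leaves room for a fold of 0.877 to 1.15. It was -0.011 with DESeq2's size factors, a change of sign. With library size alone it was 0.30 and passed (adjusted p = 0.0261), under which 6 members and 36.4% of all genes rose.

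Week by week, with 3 against 3 samples, 0 of 10 members passed in edgeR at any week, where 11.9%, 11.2%, 16.2% and 27.8% of all tested genes did at weeks 6, 8, 10 and 12. At an unadjusted p under 0.05 there were 0 members at week 6, 1 at week 8 (Bak1), 1 at week 10 (Bcl2l11) and 2 at week 12 (Mcl1, Bcl2). DESeq2 called 0 at each week, library size scaling called Bcl2 and Mcl1 at week 12, where it called 31.5% of all genes, and limma voom with sample weights called Bak1 at week 8 (adjusted p = 0.0454) and Bcl2l11 at week 12 (adjusted p = 0.0456), where it called 23% and 33.9% of all genes. Members whose groups did not overlap numbered 0 at week 6, 3 at week 8 (Mcl1 and Bak1 higher, Bcl2l1 lower), 1 at week 10 (Bcl2l11 higher) and 1 at week 12 (Mcl1 higher). Among all tested genes 36.6%, 40.2%, 40.5% and 46.7% did not overlap at these weeks. Over all 14 alternatives at a week the adjusted p ran from 0.0454 to 0.280 for Bak1 at week 8 and from 0.0326 to 0.610 for Bcl2l11 at week 12, the lowest coming without FVB replicate 2 of that week, where 29.4% of all genes were called.

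**Figure D2:**
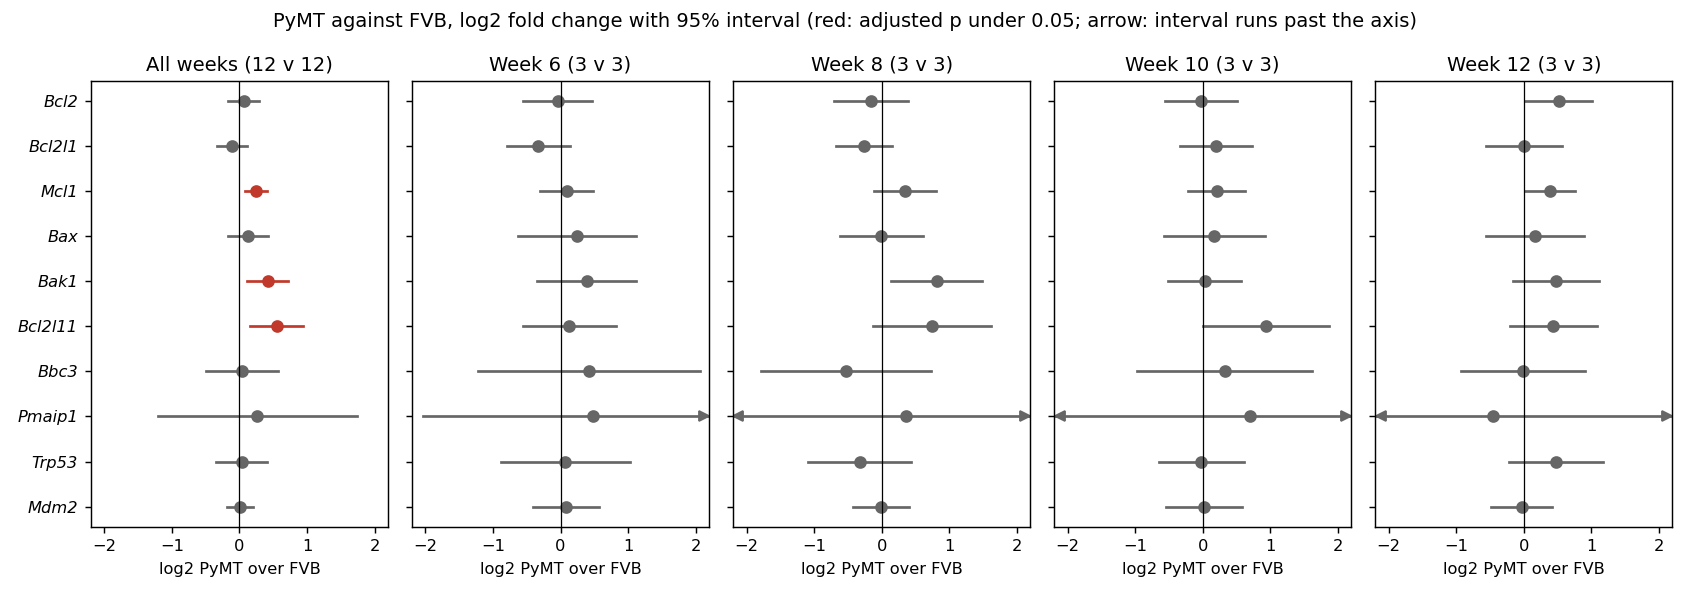
Log2 fold change of PyMT over FVB (horizontal axes) for the 10 genes with 95% intervals, over all weeks (12 against 12 samples) and at each week (3 against 3), where red marks an adjusted p under 0.05. Bcl2l11, Bak1 and Mcl1 are red over all weeks, and no gene is red at a single week.

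Within the PyMT samples, the stages were compared to see whether the genes changed with progression, and Bcl2 gave the smallest p of the 10. Its mean in normalized counts was 344 ± 41.5 at 6 weeks, then 437 ± 70.8, 443 ± 63.8 and, at 12 weeks, 713 ± 136 (SD, n = 3). FVB samples averaged 352 ± 47.2, 491 ± 102, 468 ± 66.3 and 515 ± 114 at the same weeks. The week 12 PyMT samples (576 to 847) lay above all 9 earlier PyMT samples (305 to 507). A quasi-likelihood F test over the 4 weeks gave Bcl2 an unadjusted p of 0.00041 and an adjusted p of 0.340 in edgeR. DESeq2's likelihood ratio test called Bcl2 (adjusted p = 0.0112) and no other member, and over all 31 alternatives the adjusted p ran from 0.0112 to 0.899. Over all tested genes edgeR called 0 (0%) and 597 had an unadjusted p under 0.05, while DESeq2 called 121 (0.829%) and voom 10.

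The carcinoma weeks 10 and 12 against the premalignant weeks 6 and 8 within PyMT gave 0 of 10 members, and 1 of 10, Bcl2, at an unadjusted p under 0.05. Bcl2 differed by 0.55 on the log2 scale (SE 0.15, unadjusted p = 0.00148, adjusted p = 0.355 in edgeR). Of all tested genes edgeR called 0 (0%), with 798 at an unadjusted p under 0.05, DESeq2 called 55 and voom 54. Within FVB over the weeks, 0 of 10 members passed and 0 had an unadjusted p under 0.05, against 1 of all genes called (0.0067%), 635 at an unadjusted p under 0.05, 26 in DESeq2 and 9 in voom. The test of whether the PyMT against FVB difference changed with week gave 0 of 10 members, also at an unadjusted p under 0.05. There it called 0 of all genes (0%), with 494 at an unadjusted p under 0.05, 17 in DESeq2 and 4 in voom. For Bcl2 that unadjusted p was 0.149, so a change of its PyMT values specific to the tumors was not shown.

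Ratios within a library do not depend on the scaling between libraries and are given as a description. The log2 ratio of Bcl2l11 to Bcl2l1 averaged -0.11 ± 0.53 in PyMT and -0.82 ± 0.65 in FVB samples (SD, n = 12). It ran from -1.19 to 0.60 in PyMT and from -1.68 to 0.51 in FVB samples, so the ranges overlapped with all weeks pooled. At week 8 the groups did not overlap (0.14 to 0.60 in PyMT, -1.68 to 0.066 in FVB samples). Nor did they at week 10 (-0.43 to 0.42 against -1.43 to -0.55). Ratios of other genes were not taken for comparison. The ratio of Bcl2l1 to Bcl2 was lower at week 12 than at week 6 in both groups, from 1.02 ± 0.40 to -0.27 ± 0.41 in PyMT and from 1.33 ± 0.13 to 0.21 ± 0.31 in FVB samples (SD, n = 3). The log2 ratio of Bax to Bcl2, often read as a rheostat of apoptosis, averaged -1.14 ± 0.57 in PyMT and -1.19 ± 0.34 in FVB samples. That of Mdm2 to Trp53 averaged 0.61 ± 0.51 and 0.64 ± 0.61 (SD, n = 12 each).

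**Figure D3:**
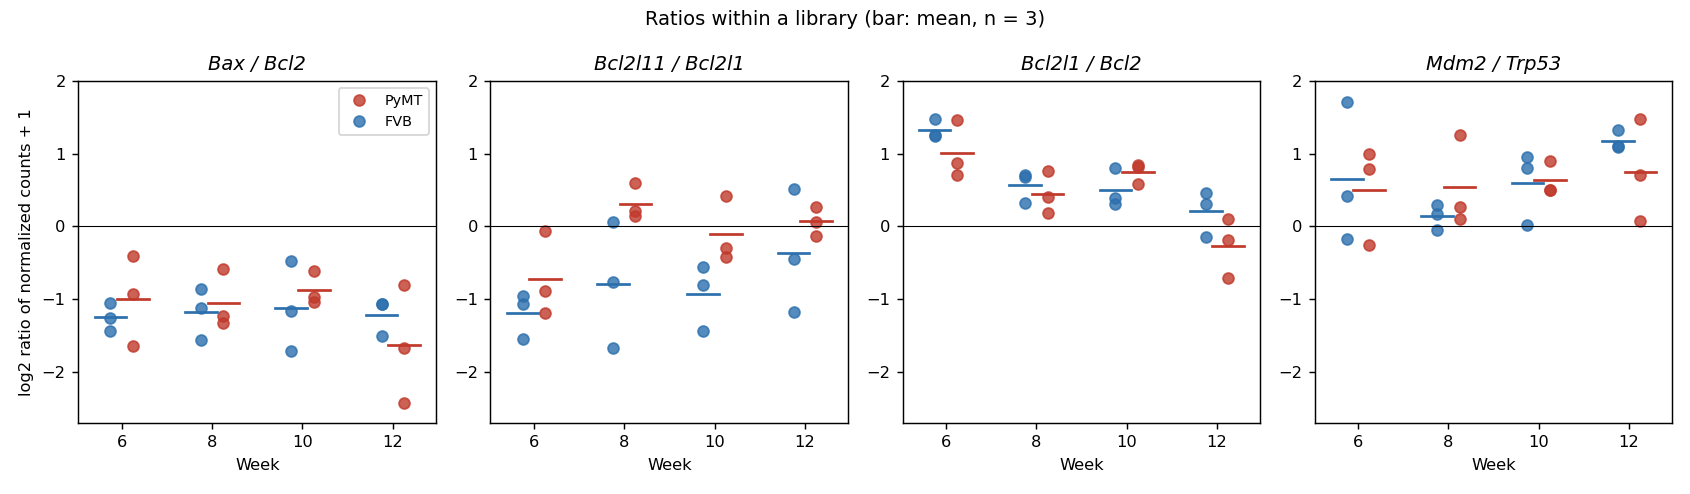
Log2 ratio of the normalized counts of 2 genes within a library (vertical axes) by week (horizontal axes) in PyMT (red) and FVB (blue) samples, with bars at the means of 3. Bcl2l1 to Bcl2 lies lower at week 12 than at week 6 in both groups. With the 4 weeks pooled the groups overlap in all 4 ratios, while Bcl2l11 to Bcl2l1 does not overlap at weeks 8 and 10.

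In the rest of the BCL2 family, 12 of 17 listed genes passed the filter on low counts, of which 4 rose, 3 fell and 5 did not pass over all weeks, where 23.6% of all tested genes rose and 27.5% fell. The median log2 difference was 0.13 against -0.03 over all tested genes. The largest changes were in other BH3-only and atypical genes. Bid, cut by caspase-8 to link death receptors to mitochondria, rose by 1.74 (SE 0.24, adjusted p = 1.86e-06, edgeR), from 106 ± 50.0 normalized counts in FVB to 346 ± 68.1 in PyMT samples without overlap (SD, n = 12). The share of all tested genes without overlap between 12 and 12 samples was not taken, here or for the lists below. Genes named from a list were picked by the same test, so their lack of overlap is a description. Bmf, a BH3-only gene tied to loss of cell anchorage, rose by 1.39 (adjusted p = 3.82e-06), and Bcl2l14 rose by 1.51 (adjusted p = 0.00585). Bnip3, a hypoxia-inducible gene of mitophagy, fell by 2.98 from 1706 ± 549 to 216 ± 85.4 without overlap (adjusted p = 8.48e-11), and its relative Bnip3l fell by 0.57 (adjusted p = 1.12e-05). Bcl2l13, a mitochondrial mitophagy receptor, had a difference of -0.39 (adjusted p = 0.0265), and that call was lost without the 4 muscle-rich FVB libraries (-0.22, adjusted p = 0.222), without the 2 libraries with the most genes at 0 (adjusted p = 0.0606) and with library size alone (-0.057, adjusted p = 0.707). Bmf lost its call in the 11 libraries without piled-up low counts, at 0.86 with an adjusted p of 0.0618.

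Grouped by role, a grouping made after the values were seen, 4 of 7 tested BH3-only genes rose (Bcl2l11, Bid, Bmf and Bad) and none fell, where 23.6% of all tested genes rose and 27.5% fell. Their median log2 difference was 0.51. With no filter on low counts 3 of 8 rose and 1 fell, where 3664 and 4547 of all 26153 genes did. Without the 4 muscle-rich FVB libraries 3 of 7 BH3-only genes rose, where 23.1% of all genes did. In the 11 libraries without piled-up low counts 1 of 7 (Bid) rose, where 16.4% of all genes did. Of 4 anti-apoptotic genes 1 rose (Mcl1), with a median of -0.03. Of 3 effectors 1 rose (Bak1), with a median of 0.13. An anti-apoptotic gene fell with voom and without the 4 muscle-rich FVB libraries, where 4345 and 3475 of all 14918 genes fell. An effector fell with DESeq2 and with voom, where 4484 of 14904 and 4345 of 14918 genes fell. The same held with counts divided by the value where low counts piled up, where 4582 of 14918 fell. With library size alone 2 anti-apoptotic genes and 2 effectors rose and 0 fell, where 5437 and 2860 of all 14918 genes did. Hrk, another BH3-only gene, did not pass the filter.

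Of 24 p53 targets, all tested, 3 rose, 11 fell and 10 did not pass, with a median log2 difference of -0.41, while 23.6% of all genes rose and 27.5% fell. Dram1, which links p53 to autophagy, fell by 3.11 from 930.3 ± 240.3 normalized counts in FVB to 105 ± 45.1 in PyMT samples (SD, n = 12, adjusted p = 1.40e-08, edgeR). Phlda3, an inhibitor of AKT, fell by 2.72 from 669.7 ± 240.3 to 103 ± 43.6 (adjusted p = 6.07e-10). Neither overlapped between the groups. Plk2, a polo-like kinase, fell by 1.38 (adjusted p = 4.84e-09) and Sesn1, a stress sensor upstream of mTORC1, by 1.00 (adjusted p = 6.84e-07). Tigar, which slows glycolysis, had a difference of -1.68 (adjusted p = 0.00497) and was not called without the 4 muscle-rich FVB libraries (-0.93, adjusted p = 0.180) or in the 11 libraries without piled-up low counts (adjusted p = 0.190). Perp, a component of desmosomes, rose by 1.06 (adjusted p = 0.000883). Cdkn1a, the cell cycle inhibitor p21 and the classic target, was picked after its values were seen and did not pass, at -0.70 (SE 0.52, adjusted p = 0.269). With library size alone 4 targets rose and 5 fell, where 5437 and 2860 of all 14918 genes did. Under that scaling the median of all tested genes moved from -0.03 to 0.26 and that of the targets from -0.41 to -0.094. With no filter on low counts 3 rose and 7 fell, where 3664 and 4547 of all 26153 genes did. Without the 4 muscle-rich FVB libraries 2 rose and 6 fell, where 3448 and 3475 of all 14918 genes did. In the 11 libraries without piled-up low counts 2 rose and 4 fell, where 2453 and 2845 of all 14918 genes did.

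Of 18 regulators of p53, 16 were tested, 5 rose, 3 fell and 8 did not pass, with a median log2 difference of 0.09. In the same test 51.1% of all tested genes were called. Chek1, a checkpoint kinase, rose by 1.94 (adjusted p = 0.00124, edgeR) from 38.1 ± 29.98 normalized counts in FVB to 144 ± 42.9 in PyMT samples (SD, n = 12), and its counterpart Chek2 rose by 1.26 (adjusted p = 3.41e-05). Atm, the kinase that answers double-strand breaks, rose by 0.85 (adjusted p = 2.63e-08), and none of these genes overlapped between the groups. Atr, a related kinase picked after its values were seen, did not pass, at 0.20 (adjusted p = 0.116). Rchy1, a ubiquitin ligase for p53, rose by 0.63 (adjusted p = 0.000453), a call that was lost in the 11 libraries without piled-up low counts (0.51, adjusted p = 0.0507). Hipk2, a kinase that phosphorylates p53 in apoptosis, fell by 2.19 from 3245 ± 679.6 to 709 ± 212 without overlap (adjusted p = 1.33e-10). Prkdc, the catalytic subunit of the DNA repair kinase DNA-PK, had a difference of -0.51 (adjusted p = 4.62e-05), a call that was lost with library size alone (-0.21, adjusted p = 0.0906).

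Downstream of mitochondria, 18 caspases, apoptosome genes and inhibitors of apoptosis (IAPs) were tested, of which 3 rose, 6 fell and 9 did not pass, where 23.6% of all tested genes rose and 27.5% fell. The list's median log2 difference was -0.16. Birc5, the gene for survivin, which also serves mitosis and so varies with cell division, rose by 2.31 (SE 0.60, adjusted p = 0.00228, edgeR) without overlap. Htra2, a mitochondrial protease that blocks IAPs, rose by 0.45 (adjusted p = 0.00598). Xiap, the caspase inhibitor, had a difference of -0.39 (adjusted p = 0.000149) and Birc3, an IAP of the NF-kB pathway, one of -0.49 (adjusted p = 0.00865). Endog, a mitochondrial nuclease, had one of -0.79 (adjusted p = 0.0392), a call that was lost under 7 alternatives, among them voom (-0.43, adjusted p = 0.137) and leaving out the 4 muscle-rich FVB libraries (-0.32, adjusted p = 0.394). With library size alone 8 of the 18 rose and 0 fell, where 2860 of all 14918 genes fell. That scaling moved the median of all tested genes from -0.03 to 0.26 and that of the list from -0.16 to 0.13, and 36.4% of all genes rose under it. In the 11 libraries without piled-up low counts 1 rose and 1 fell, where 2453 and 2845 of all 14918 genes did. Birc5 (adjusted p = 0.0578), Htra2 (adjusted p = 0.0645) and Xiap (adjusted p = 0.187) were not called there. With no filter 3 rose and 2 fell, where 3664 and 4547 of all 26153 genes did.

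Of 12 factors upstream of BCL2 genes, 2 rose, 3 fell and 7 did not pass, where 51.1% of all tested genes were called, and the median log2 difference was -0.08. Stat3, which can induce Mcl1 and Bcl2l1, rose by 0.70 (SE 0.10, adjusted p = 2.67e-06, edgeR) from 2288 ± 316 to 3689 ± 544 normalized counts without overlap (SD, n = 12). Foxo3, known to activate Bcl2l11, had a difference of 0.32 (adjusted p = 0.0313), and its relatives Foxo1 and Foxo4 had differences of -0.44 (adjusted p = 0.0283) and -0.39 (adjusted p = 0.0412). Nfkb1, a subunit of NF-kB, had one of -0.33 (adjusted p = 0.00126). Stat3 was called under every alternative run over all weeks that did not leave out a single replicate, whereas the other 4 each lost the call under at least 1. With library size alone 4 rose and 0 fell, under the same shift of all genes, where 5437 and 2860 of all 14918 genes did.

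**Figure D4:**
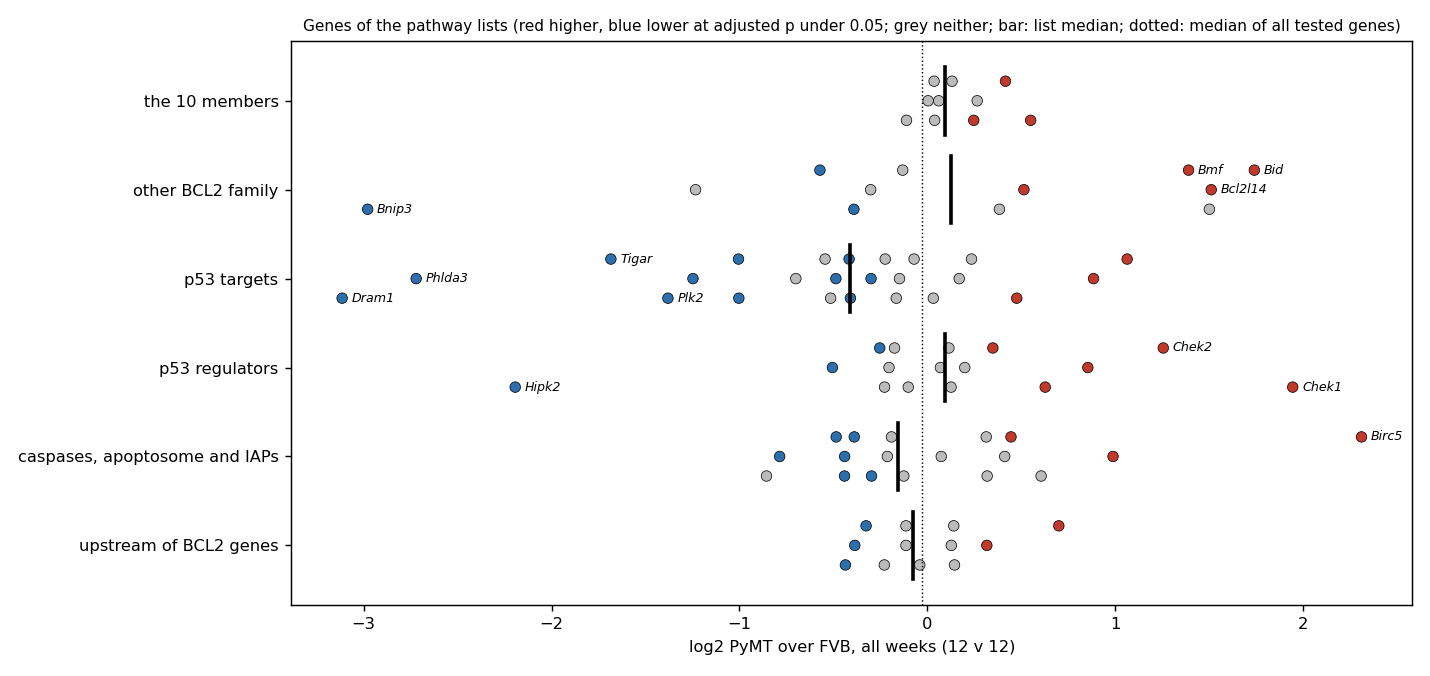
Log2 fold change of PyMT over FVB over all weeks (horizontal axis) for each tested gene of the members and the 5 pathway lists (rows; vertical offsets separate the points), where red is higher and blue lower at an adjusted p under 0.05, black bars are list medians and the dotted line is the median of all tested genes (-0.03). The p53 targets have the lowest median (-0.41), and the 10 members lie between -0.11 and 0.55.

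The tested gene whose pattern across the 24 samples was most like each member is given as a description by Pearson's r of log2 values, in which all points share libraries and genotype groups. For Bcl2l11 it was Chd4 (r = 0.88), for Bak1 Shroom2 (r = 0.87), for Bax Hdhd3 (r = 0.84) and for Mcl1 Ppfibp2 (r = 0.83). For Bcl2 it was Ttc39b (r = 0.80), for Bcl2l1 Fkbp5 (r = 0.80), for Pmaip1 Slc17a9 (r = 0.80) and for Trp53 Hcfc1 (r = 0.79). Those for Mdm2 (Rnf115) and Bbc3 (Zfp711) were lower, at 0.71 and 0.70.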

How the data were processed

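RNA of mammary tissue was measured in 24 samples, 1 mouse each. The authors made directional, ribosome-depleted libraries, used GSNAP for alignment to mm9 and HTSeq for counting over Ensembl genes, and deposited the raw counts. The strand option of the counting and the annotation release are not given in the sources used here. Symbols and coordinates came from GENCODE M1 (37205 of 37991 genes). The members and lists were chosen with earlier results of these data known.

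The 14918 genes that reached a CPM of 1 in 12 or more of the 24 samples were tested with edgeR 4.0.16 in R 4.3.3 (TMM, quasi-likelihood test, Benjamini-Hochberg adjustment over all tested genes). Each week compared 3 PyMT with 3 FVB samples. The test over all weeks had week as a term, and stage tests used a fit of 8 groups. The SE is the log2 fold change over the square root of F. Normalized counts are counts over DESeq2 size factors. Alternatives were DESeq2 1.42.0, RLE or library size scaling, no filter, counts divided by the value where low counts piled up, limma 3.58.1 voom, a replicate block, a fit of all samples for the weeks and leaving out each replicate. Tables and figures used Python 3.11.15, NumPy 2.4.6, pandas 2.3.3, SciPy 1.17.1 and matplotlib 3.10.9. Scripts were tested on simulated data.

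Named genes were the 10 members, of each list the 4 called genes with the largest change and the next 2 by adjusted p, and the gene most like each member. One gene this rule names is not reported here. The lists were other BCL2 family, p53 targets, p53 regulators, caspases with apoptosome and IAPs, and factors upstream of BCL2 genes. Marker lists covered adipocytes, luminal and basal epithelium, T and B cells, macrophages, endothelium, fibroblasts, skeletal muscle and proliferation.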

Additional observations from a re-analysis of the deposited data

How the results depend on the processing

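Over all weeks, 32 of 34 alternatives called Bcl2l11, Bak1 and Mcl1 together, including DESeq2, the replicate block and all 24 fits that left out 1 replicate. Leaving out 1 replicate gave 3 called members throughout. Scaling by library size alone called 6 members (adding Bax at 0.42, Bcl2 at 0.34 and Mdm2 at 0.30). Under that scaling the median of all tested genes moved from -0.03 to 0.26, and the cause of the added calls was not tested. The 11 libraries without piled-up low counts, added after seeing the data with the next 2, called 1 (Bak1). They had fewer samples and compared the genotypes within weeks 8 and 12 only. Leaving out the 2 libraries with the most genes at 0 (among 3799 genes of medium level) kept the 3 calls, and leaving out the 4 muscle-rich FVB libraries lost Bcl2l11.

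Signs reversed among members that did not pass. Leaving out 1 replicate moved Bbc3 between -0.084 and 0.14, Trp53 between -0.044 and 0.14 and Mdm2 between -0.020 and 0.059. Mdm2 was -0.011 with DESeq2 and -0.011 with RLE scaling, Bcl2l1 was 0.17 with library size alone, and Bbc3 was -0.015 with voom and -0.12 in the 11 libraries. Without the muscle-rich libraries Bbc3 was -0.081, Trp53 -0.091 and Bcl2 -0.020.

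By week, library size alone called 2 members at week 12 (Bcl2 and Mcl1, with 31.5% of all genes), voom called 1 at week 8 (Bak1) and 1 at week 12 (Bcl2l11), and leaving out 1 replicate at week 12 gave 0 to 1 (Bcl2l11 without FVB replicate 2, adjusted p = 0.0326). Within PyMT over weeks DESeq2 called 1 (Bcl2). The cause was not tested. Of 40 weekly member values, none of them called, 18 changed sign under some alternative.

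The replicate numbers were not taken as pairs, since not every pair correlated: deviations of same-numbered PyMT and FVB samples correlated at -0.025 to 0.18, over 0.1 in 4 of 12 pairs. Differently numbered samples of the same week correlated at -0.13 to 0.091, with no pair over 0.1. The same-numbered pairs of replicate 3 gave 0.145, 0.177 and 0.164 at weeks 6, 8 and 10, a hint from the data, not the design. The replicate block called the same number of members in every comparison, 3 over all weeks and 0 elsewhere, and it ended the calls of Endog (adjusted p = 0.0533, edgeR) and Foxo4 (adjusted p = 0.0511). Raw counts of 0 to 41 limit Pmaip1.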
